A study of Oryza sativa with 6 samples.

Results

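MicroRNA miR396 and the growth-regulating factors (GRFs) were followed in rice roots exposed to hexavalent chromium, Cr(VI), a toxic oxidizing form of the metal. The members were all 12 array probes whose name starts with osa-miR396 and the probes of 8 loci given by their gene numbers, OsGRF1, 2, 3, 4, 5, 6, 9 and 10, out of 30218 genes on the array (one value per locus, with each microRNA probe counted as its own). Roots came from 6-day-old seedlings of the cultivar TN-67. Short-exposure samples pooled roots held in 50 µM Cr(VI) for 1 h and for 3 h, long-exposure samples were held in it for 24 h, and control roots stood in water. Each of the 6 dual-colour arrays, 3 for each exposure, carried treated RNA in Cy5 and control RNA in Cy3, with no dye swap, so a probe's bias for a dye adds to every ratio. The arrays of an exposure are named biological replicates in the labels, which leave unsaid whether arrays shared a pool of control RNA.

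In plants, miR396 guides an ARGONAUTE protein to the transcripts of most GRF genes and leads to their cleavage. GRFs are plant-specific transcription factors that carry a QLQ and a WRC domain, act together with GRF-interacting coactivators, and promote cell proliferation in growing organs, root meristems included. A balance between the microRNA and its GRF targets is known to set the size of the dividing zone in roots of Arabidopsis. RefSeq lists 6 of the 8 members by name (OsGRF1, 3, 4, 5, 6 and 10), each on the chromosome that its locus number carries.

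The value of a member is its log2 ratio, the treated over the control signal of one array after background correction and loess normalization. A mean is followed by its SD over arrays. A call needed an adjusted p under 0.05 in a limma model fitted to all 23490 genes that passed the filter on dim signals, under which Cy3 or Cy5 had to be well above background (Agilent's own flag) in 3 or more of the 6 hybridisations. Of the 12 miR396 probes 5 passed this filter, and of the 8 loci 6 did. Median spot intensity over the arrays ran from 328 to 535.5 in Cy3 and from 263 to 438.5 in Cy5, and no spot was saturated. Short replicate 1 lay on slide 1, short replicates 2 and 3 on slide 2 and all long replicates on slide 3. The slide 2 arrays stood apart in Cy3 local background, at 71.5 and 73.5 against 36 to 40.5 on the others. No slide held both exposures, so in every difference given here exposure and slide cannot be told apart. In whole roots, fewer cells of a type and less RNA per cell cannot be told apart.

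Each of the 4 miR396 loci has 1 probe tagged 5'seq, 1 tagged 3'seq and 1 tagged Mature. The loci are miR396a and miR396c on chromosome 2, miR396b on chromosome 6 and miR396d on chromosome 4, by the probe names. The labels do not say which transcript form each tag reads. None of the 4 Mature probes passed the filter, against 71 of the 170 Mature probes of all microRNAs. Their Cy5 spot intensity ran from 56 to 171. The highest of these came from a spot of miR396d Mature on short replicate 2, the only array on which that probe was well above background. None of the miR396a probes passed either, nor did miR396c 5'seq. These 7 dim probes give no fold. The probes that could be read were 5'seq and 3'seq of miR396b, 5'seq and 3'seq of miR396d, and 3'seq of miR396c.

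**Figure D1:**
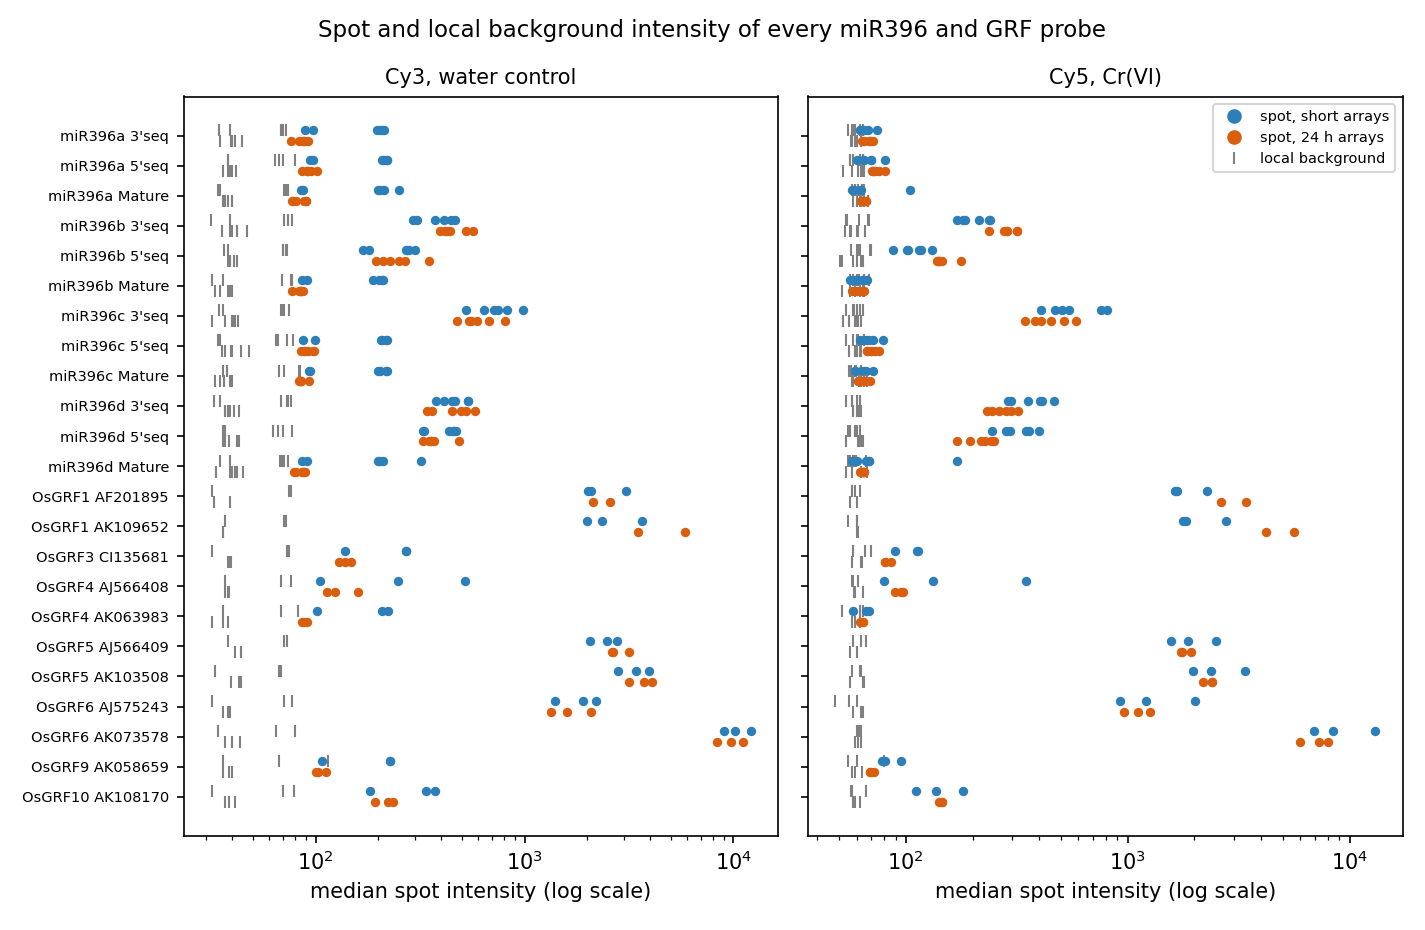
Median spot intensity of every miR396 and GRF probe on a log scale, Cy3 (water control) on the left and Cy5 (Cr(VI)) on the right; a point is a spot of a short (blue) or 24 h (orange) array, a grey tick its local background, and outlier spots are left out. The 4 Mature probes and the miR396a probes lie close to background in Cy5, apart from a miR396d Mature spot at 171 and a miR396a Mature spot at 104, while the OsGRF6 probe AK073578 is the brightest of the probes drawn in each panel.

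The miR396d probes were higher than control after the short exposure and lower after 24 h. The 3'seq probe read 0.11, 0.25 and 0.24 on short replicates 1 to 3 and -0.28, -0.06 and -0.32 on the long ones. The ratios of the exposures did not overlap. The share of all genes without overlap was not counted, so for every member lack of overlap is only a description. Its short mean of 0.20 ± 0.08 (SD, n = 3) passed the test (limma adjusted p = 0.035), as did its 24 h mean of -0.22 ± 0.14 (SD, n = 3; limma adjusted p = 0.02).

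The 5'seq probe of miR396d had the same signs, with 0.10, 0.17 and 0.31 after the short exposure and -0.53, -0.25 and -0.13 after 24 h, again without overlap. Its short mean was 0.19 ± 0.11 (SD, n = 3; limma adjusted p = 0.08) and did not pass, though it did with array weights (0.22, adjusted p = 0.04) and without long replicate 1 (adjusted p = 0.04), and its 24 h mean was -0.30 ± 0.21 (SD, n = 3; limma adjusted p = 0.012). The 24 h minus short difference passed for both probes, at -0.42 (SE 0.0957, limma adjusted p = 0.0095) for 3'seq and -0.50 (SE 0.118, limma adjusted p = 0.011) for 5'seq. These differences are 1.34-fold and 1.41-fold in size.

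The channels of miR396d were also compared one by one. In Cy3 the 24 h arrays differed from the short ones by 0.03 (SE 0.166, limma adjusted p = 0.91) for 3'seq and by -0.02 (SE 0.12, limma adjusted p = 0.93) for 5'seq. The mean treated level on the log2 scale went from 8.665 to 8.327 for 3'seq and from 8.459 to 7.989 for 5'seq. The treated 5'seq signal was 380, 331 and 346 on the short arrays and 209, 261 and 300 on the long arrays, so that every long value lay below every short one. The short rise of 3'seq did not pass when Agilent's processed signals (0.116, adjusted p = 0.17) or median centring (adjusted p = 0.17) were used, nor when short replicate 2 (adjusted p = 0.14), short replicate 3 (adjusted p = 0.15) or both of them, the slide 2 arrays (0.105, adjusted p = 0.58), were left out. Leaving out long replicate 1 ended the 24 h call of 3'seq (-0.191, adjusted p = 0.094) and of 5'seq (-0.187, adjusted p = 0.081), leaving out long replicate 3 ended that of 3'seq (adjusted p = 0.11), and the differences between the exposures were lost only without the slide 2 arrays (-0.325 and -0.400, adjusted p = 0.17 and 0.16).

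**Figure D2:**
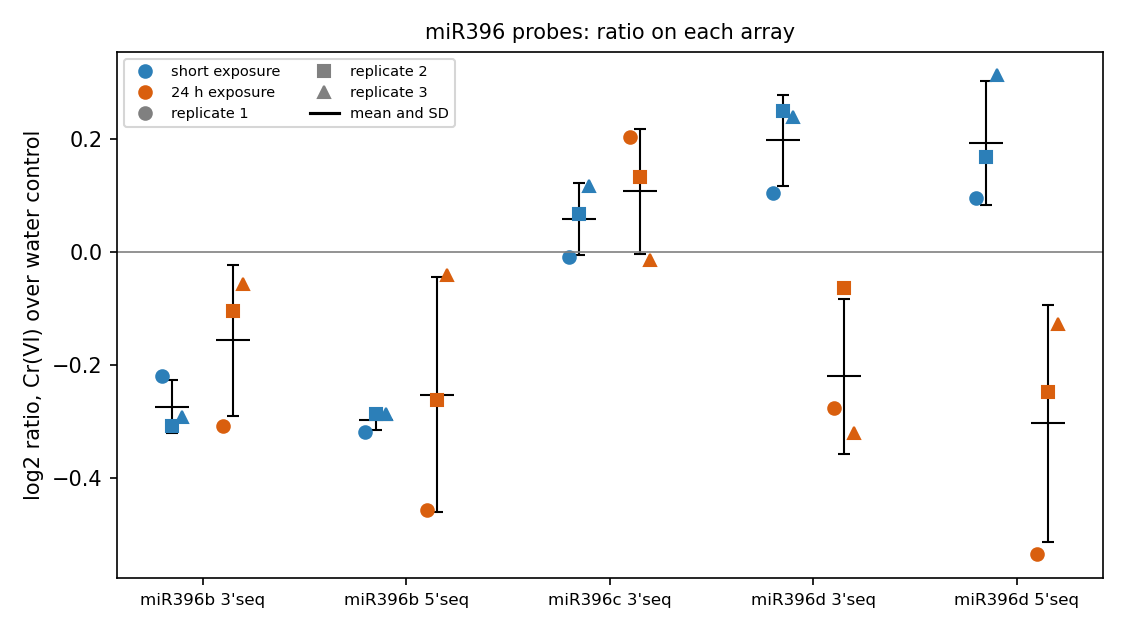
Log2 ratio of Cr(VI) over water control for the 5 miR396 probes that passed the filter; a point is an array, its shape the replicate, its colour the exposure, and the bars give mean and SD (n = 3). Both miR396d probes lie above 0 on all short arrays and below 0 on all 24 h arrays, while both miR396b probes lie below 0 on all 6.

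The miR396b probes were below control on every array. The 3'seq probe read -0.22, -0.31 and -0.29 after the short exposure and -0.31, -0.10 and -0.06 after 24 h. The 5'seq probe read -0.32, -0.29 and -0.29 and then -0.46, -0.26 and -0.04. Both passed as lower than control after the short exposure. The means were -0.27 ± 0.05 (SD, n = 3, limma adjusted p = 0.0072) and -0.30 ± 0.02 (SD, n = 3, limma adjusted p = 0.012), or 1.21-fold and 1.23-fold. With no dye swap, a fall cannot be told apart here from a dye bias of these probes.

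At 24 h the spread between arrays of miR396b was wider. The 5'seq mean of -0.25 ± 0.21 (SD, n = 3) passed (limma adjusted p = 0.019) and the 3'seq mean of -0.16 ± 0.13 (SD, n = 3) did not (limma adjusted p = 0.061). The differences between the exposures were small beside their errors, 0.12 (SE 0.0911, limma adjusted p = 0.34) for 3'seq and 0.04 (SE 0.11, limma adjusted p = 0.78) for 5'seq. With Agilent's processed signals the short ratios were -0.57 and -0.77, and at 24 h that of 5'seq was -0.41 and that of 3'seq passed (-0.27, adjusted p = 0.03). The 24 h ratio of 3'seq also passed under median centring (-0.316, adjusted p = 0.01) and was -0.0804 without long replicate 1 (adjusted p = 0.34). Leaving out long replicate 1 (-0.15, adjusted p = 0.13) or long replicate 2 (adjusted p = 0.078) ended the 24 h call of 5'seq, leaving out short replicate 1 (adjusted p = 0.054) its short call, and leaving out the slide 2 arrays the short calls of both (adjusted p = 0.23 and 0.16).

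The mean treated level of miR396b on the log2 scale was 7.811 on the short and 8.407 on the 24 h arrays for 3'seq, and 6.886 and 7.459 for 5'seq. The Cy3 difference was 0.43 (SE 0.126, limma adjusted p = 0.082) for 3'seq and 0.49 (SE 0.137, limma adjusted p = 0.076) for 5'seq, and neither passed. For miR396c 3'seq the Cy3 difference was -0.36 (SE 0.115, limma adjusted p = 0.099). The miR396c 3'seq ratio was -0.01, 0.07 and 0.12 after the short exposure and 0.20, 0.13 and -0.01 after 24 h. Neither mean passed, at 0.06 ± 0.06 and 0.11 ± 0.11 (SD, n = 3 each; limma adjusted p = 0.44 and 0.16). Under median centring the 24 h ratio was -0.104 (adjusted p = 0.4).

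Every miR396 probe was spotted in duplicate, which gives the error within an array. The median gap between the spots of a probe was 0.0905 for miR396d 3'seq and 0.107 for miR396d 5'seq, under the difference between the exposures. Their largest gaps on an array were 0.251 and 0.317, above the size of each probe's mean ratio in either exposure. For miR396b 5'seq it was 0.107. It was 0.312 for miR396b 3'seq, as large as that probe's ratios, so its single-array values carry a wide error between spots.

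Counted over the probes tested, 1 of 5 miR396 probes rose and 2 fell after the short exposure, where 54.7% of all genes and 39.6% of the 265 microRNA probes tested passed. At 24 h 3 of 5 fell and 0 rose, where 64.6% of all genes and 43% of the microRNA probes passed. Between the exposures 2 of 5 were lower and 0 higher, where 38.7% of all genes and 14% of the microRNA probes passed. These background shares count both directions. Those lower at 24 h were 7267 of 23490 genes and 38 of 265 microRNA probes, and between the exposures 5240 and 20. The shares of the 5 miR396 probes, 60%, 60% and 40%, stand near those of all genes and above those of the microRNA probes. They rest on 5 probes of 3 loci, so the counts are not a result about miR396. The median ratio of the 5 probes was 0.06 after the short exposure and -0.22 at 24 h, and that of all genes was 0.02 at each. The differences between the exposures were small in fold for miR396d 3'seq and 5'seq, at 1.34-fold and 1.41-fold. They were larger than those of most genes, since 26.2% and 20.5% of all genes had a larger difference. The median absolute difference on the log2 scale was 0.223 for all genes and 0.11 for the microRNA probes.

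Among the GRF loci, OsGRF1 rose at 24 h, OsGRF3 fell at 24 h and more slightly after the short exposure, and OsGRF10 fell after the short exposure. OsGRF4, OsGRF5 and OsGRF6 passed in no comparison. In all, 0 of 6 rose and 2 fell after the short exposure, 1 rose and 1 fell at 24 h, and 1 was higher at 24 h than after the short exposure. These shares, 33.3% in each exposure and 16.7% between them, lie below those of all genes. They rest on 6 loci, so the counts are not a result about the GRFs. With the main processing no GRF locus and no miR396 probe reached 2-fold in either exposure. Of all genes 5.24% reached that size after the short exposure and 8.3% at 24 h. From Agilent's processed signals the dim OsGRF3 probe passed 2-fold at 24 h, with a ratio of -1.25.

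OsGRF1 (Os02g0776900, chromosome 2), first described in rice as a gibberellin-induced transcript of elongating stems, has 2 probes on the array. The brighter one, AK109652, read 0.25, -0.30 and 0.08 after the short exposure, a mean of 0.01 ± 0.28 (SD, n = 3; limma adjusted p = 0.94). After 24 h it read 0.59 and 0.82 on long replicates 1 and 2, and its spot on long replicate 3 was an outlier that was left out, so the fit used 2 long values. The long ratios lay above all short ones. The mean of 0.71 ± 0.17 (SD, n = 2) is a 1.63-fold rise (limma adjusted p = 0.0021), and 16.1% of all genes had a larger ratio at 24 h. The difference from the short exposure was 0.69 (SE 0.168, limma adjusted p = 0.015).

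The other probe of OsGRF1, AF201895, had its outlier spot on long replicate 1 instead, so that each long array was read by at least 1 of the probes. It read 0.15, -0.31 and 0.10 after the short exposure and 0.89 and 0.92 on long replicates 2 and 3. On short replicate 2 both probes were below control, at -0.30 and -0.31. With the outlier spots kept, a choice made after seeing the data, the 24 h ratio of AK109652 was 0.82 (adjusted p = 0.00027) and the difference 0.81 (adjusted p = 0.0047). The 24 h rise of OsGRF1 passed under all 20 alternatives run for it, with ratios from 0.41 to 0.91. Of these, leaving out long replicate 1 (0.824, adjusted p = 0.01) or long replicate 2 (0.588, adjusted p = 0.04) leaves 1 long value, which is assumed to vary like the rest, so these say little about stability. The lowest came with median centring, which moved the median of all genes at 24 h by -0.112 and gave a difference of 0.43 (adjusted p = 0.048). Leaving out long replicate 2 (0.577, adjusted p = 0.10) or the slide 2 arrays (0.452, adjusted p = 0.10) ended the call of the difference.

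The signals of the OsGRF1 probes were also compared channel by channel. For AK109652 the treated signal was 2610, 2410 and 2100 on the short arrays and 5760 and 5440 on the long ones, and the control signal was 2190, 2960 and 1990 and then 3830 and 3080. Treated and control signals were thus both higher on the long arrays for this probe, and the Cy3 difference was 0.50 (SE 0.202, limma adjusted p = 0.17). For AF201895 the mean treated level on the log2 scale went from 11.02 to 11.89, while the control level was 11.04 and 10.98. The long means of AK109652 come from long replicates 1 and 2 and those of AF201895 from long replicates 2 and 3. The probes had the same sign in the ratio, and their control levels did not move alike.

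**Figure D3:**
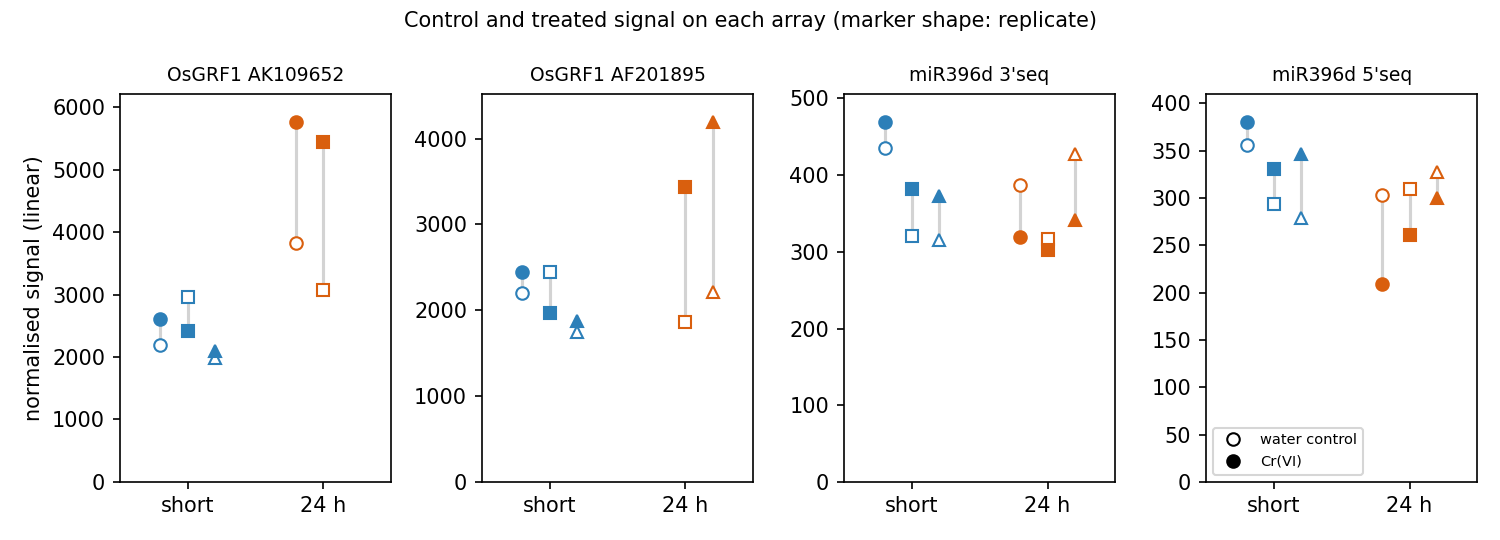
Normalised signal on a linear scale for both OsGRF1 probes and both miR396d probes, each panel with its own axis from 0; an open marker is the water control, a filled one the Cr(VI)-treated roots of the same array, joined by a line, and the marker shape is the replicate. For OsGRF1 the treated signal lies far above its control on the 24 h arrays drawn, and for miR396d it lies below its control there.

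OsGRF3 (Os04g0600900, chromosome 4) and OsGRF10 (Os02g0678800, chromosome 2) are known in rice to bind and repress a KNOX homeobox gene. The single probe of OsGRF3 read -0.18, -0.25 and -0.09 after the short exposure and -0.29, -0.42 and -0.39 after 24 h. All values were below control, and the exposures did not overlap. The short mean was -0.17 ± 0.08 (SD, n = 3; limma adjusted p = 0.036) and the 24 h mean -0.37 ± 0.07 (SD, n = 3; limma adjusted p = 0.00071), a 1.29-fold fall. The difference of -0.19 (SE 0.0838, limma adjusted p = 0.10) did not pass. It was -0.468 and passed with background subtraction (adjusted p = 0.019), -0.734 from Agilent's processed signals (adjusted p = 0.06) and -0.018 under median centring (adjusted p = 0.94).

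The OsGRF3 probe is dim, with a treated signal of 93 to 118, and was well above background in Cy5 on 2 short and 2 long arrays, so its size is poorly known. Agilent's processed signals gave a 24 h ratio of -1.25 (adjusted p = 0.0014), and median centring gave -0.24, which did not pass (adjusted p = 0.052). The short call was lost in 8 of the 20 alternatives, among them leaving out any one of short replicates 1, 2 and 3 (adjusted p = 0.11, 0.17 and 0.052) or long replicate 2 (adjusted p = 0.051).

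The OsGRF10 probe read -0.30, -0.30 and -0.33 after the short exposure, a spread of 0.02 around a mean of -0.31 (SD, n = 3; limma adjusted p = 0.0077), or 1.24-fold. After 24 h it read -0.24, 0.10 and -0.22, and the mean of -0.12 ± 0.19 (SD, n = 3) did not pass (limma adjusted p = 0.19). Every short value was below every long value. The difference of 0.19 (SE 0.106, limma adjusted p = 0.18) did not pass, so a return toward control was not shown. With Agilent's processed signals the short ratio was -0.67, and leaving out the slide 2 arrays ended the call (adjusted p = 0.17). Without long replicate 2 the 24 h ratio was -0.231 and passed (adjusted p = 0.023).

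OsGRF4 (Os02g0701300, chromosome 2), known for its part in grain size and nitrogen use in rice, was read by the probe AJ566408. It read 0.20, 0.18 and 0.15 after the short exposure and -0.29, 0.00 and 0.06 after 24 h. The short values were close together and all above the long ones. The short mean of 0.18 ± 0.03 (SD, n = 3; limma adjusted p = 0.073), the 24 h mean of -0.08 ± 0.19 (SD, n = 3; limma adjusted p = 0.38) and the difference of -0.25 (SE 0.104, limma adjusted p = 0.087) did not pass, though without long replicate 1 the short mean did (adjusted p = 0.029). From Agilent's processed signals the same 3 values were 0.577, -0.399 and -0.976, and none passed (adjusted p of 0.099, 0.22 and 0.083). The sign at 24 h was positive under median centring (0.0304) and without long replicate 1 (0.0299). On short replicate 3 this spot was far brighter in both channels, with a treated signal of 375 against 100 and 129 on the other short arrays and a control signal of 338 against 87.4 and 114, while its ratio was in range. The other OsGRF4 probe, AK063983, was not well above background in either channel on any array.

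OsGRF5 (Os06g0116200, chromosome 6) and OsGRF6 (Os03g0729500, chromosome 3) were the bright members whose ratios stayed close to 0. OsGRF6 is known in rice as a miR396 target that shapes the panicle. Its brighter probe, AK073578, had treated signals of 9250, 11100 and 9620 on the short and 7570, 7610 and 9570 on the long arrays. For this probe the 24 h minus short Cy3 difference was -0.38 (SE 0.108, limma adjusted p = 0.076), and it did not pass. Its ratios were -0.07, 0.05 and 0.02 after the short exposure and 0.02, 0.03 and 0.15 after 24 h, with means of 0.00 ± 0.06 and 0.07 ± 0.07 (SD, n = 3 each; limma adjusted p = 0.99 and 0.32). The SE of these means was 0.0571. Under median centring the 24 h ratio was -0.162 (adjusted p = 0.23). The second probe, AJ575243, averaged -0.12 and 0.01.

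The OsGRF5 probe AK103508 read -0.12, -0.15 and -0.11 after the short exposure and -0.09, -0.19 and 0.12 after 24 h. The means were -0.12 ± 0.02 and -0.06 ± 0.16 (SD, n = 3 each; limma adjusted p = 0.15 and 0.49). The other probe, AJ566409, averaged 0.00 and -0.04, so the small short shift was seen by AK103508 alone. The OsGRF5 ratio passed as lower in some settings, after the short exposure from Agilent's processed signals (-0.27, adjusted p of 0.012) and at 24 h under median centring (-0.35, adjusted p of 0.011). For OsGRF5 and OsGRF6 the ratios of the exposures overlapped.

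**Figure D4:**
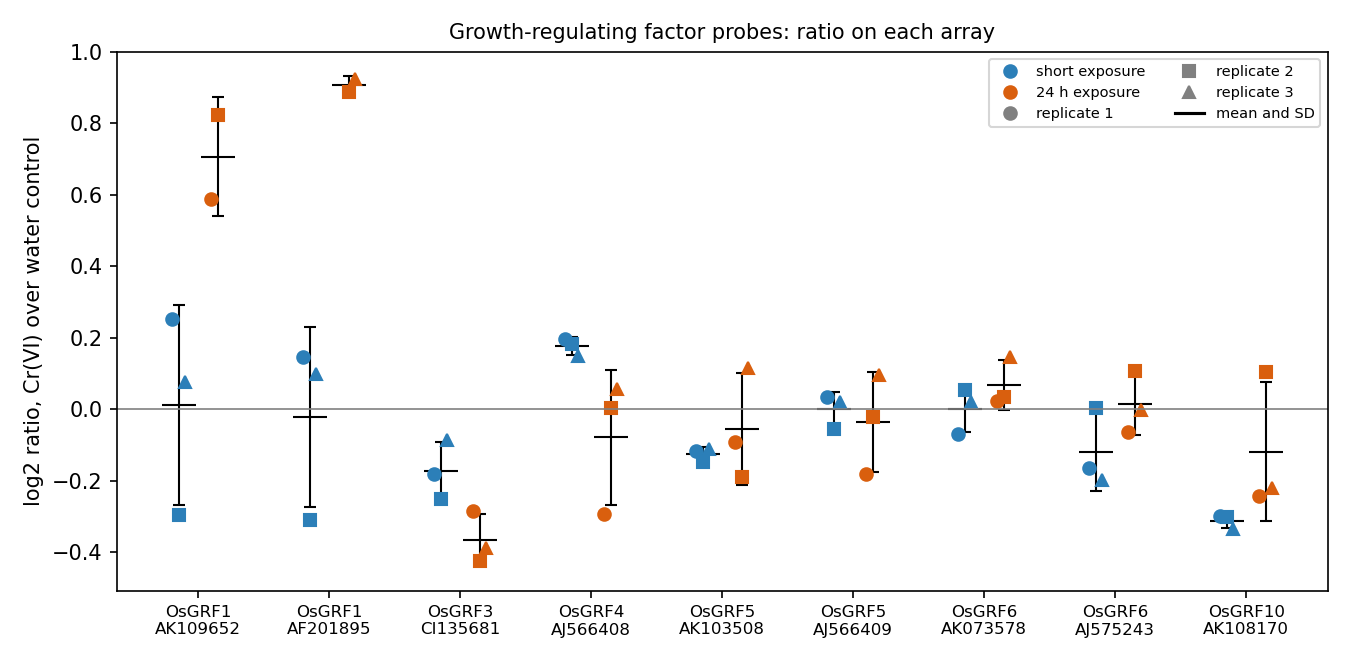
Log2 ratio of Cr(VI) over water control for the GRF probes tested and the second probes of OsGRF1, OsGRF5 and OsGRF6, named by gene and probe. A point is an array, its shape the replicate and its colour the exposure. The bars give mean and SD (n = 3, or 2 for the 24 h values of OsGRF1, where an outlier spot was left out). For OsGRF3 and OsGRF4, arrays where a channel was not well above background are drawn too. Both OsGRF1 probes lie between 0.59 and 0.92 at 24 h, apart from all other values drawn.

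OsGRF9 (Os03g0674700, chromosome 3) and OsGRF2 (Os06g0204800, chromosome 6) have no test. The OsGRF9 probe was well above background on long replicate 1 in Cy3 alone, and its ratios of 0.07, 0.11 and 0.23 after the short exposure and -0.35, -0.11 and -0.09 after 24 h are given without a fold. OsGRF2 has no probe under its locus number in these files.

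Set side by side at 24 h, both miR396d probes and miR396b 5'seq were lower, and miR396c 3'seq did not pass. Without long replicate 1 no miR396 probe passed at 24 h. Of the GRF loci tested OsGRF1 was higher at 24 h, OsGRF3 was lower and OsGRF4, OsGRF5, OsGRF6 and OsGRF10 did not pass. After the short exposure both miR396b probes were lower and miR396d 3'seq higher, and OsGRF3 and OsGRF10 were lower. Where the sign was the same in both exposures, as for miR396b and OsGRF3, a dye bias cannot be told apart from a response. Microarray signals of different probes cannot be set against each other as levels, and none of the Mature probes passed the filter.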

How the data were processed

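Per the file headers, the deposited intensity values are median spot and local background intensities from Agilent Feature Extraction 10.7.1.1, beside processed signals that the software background-subtracted and dye-normalized, and 0 or 1 flags per spot (other values in the deposited files). The authors' deposited table holds log2 ratios for 42475 probes, which matched log2 of processed red over processed green on every array, with column medians from -0.178 to 0.0385 (not centred).

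With limma 3.58.1 (R 4.3.3), median intensities were corrected by normexp (offset 50) and each array was loess-normalized. Outlier spots (163 to 1936 of 43734 per array) and 59 plant control probes were left out, and duplicate spots were averaged. A locus was represented by its brightest probe over the arrays. A gene also needed at least 2 values per exposure. One model (lmFit, eBayes; 4 residual and 4.36 prior degrees of freedom) gave both means against 0 and their difference, with Benjamini-Hochberg adjustment over 23490 genes. Cy3 was compared after quantile normalization, and channel levels are after loess and Aquantile. The functions were tested on simulated arrays whose planted changes were at least 2-fold and in bright genes only. Changes as small as those of the members, or in dim probes, were not covered. The number of arrays limits the precision.

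Every miR396 probe that passed the filter and every member locus is named, by rule. Members and lists were chosen with earlier results of these data known. None of 23 locus numbers (members, partner genes, root and leaf markers) was found in the RefSeq table of ASM3414082v1, so partner genes are not reported and the tissue label was not checked against markers.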

Additional observations from a re-analysis of the deposited data

Results flagged for a closer look

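For 3 members the response differed between the exposures by the test of the difference itself. The miR396d probes among them belong to the same locus and were read on the same arrays. The 24 h minus short log2 ratio was -0.418 for miR396d 3'seq and -0.496 for miR396d 5'seq. It was 0.695 for OsGRF1, from 3 short and 2 long values. Of all genes 38.7% passed this test. In the control channel alone the 24 h minus short differences of these members were 0.03, -0.02 and 0.50 on the log2 scale (limma adjusted p = 0.91, 0.93 and 0.17). Exposure and slide cannot be told apart.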

How the results depend on the processing

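No called value of a member turned its sign under the alternatives run. Counts of members past the threshold moved as follows (limma throughout). For GRF loci after the short exposure, 2 became 1 with background subtraction, with median centring and with a trended robust prior, became 3 (all lower) with Agilent's processed signals and with the authors' deposited table, and ran from 1 to 3 when an array was left out. For GRF loci between the exposures, 1 became 2 with background subtraction (OsGRF3, lower) and 2 with no filter on dim probes (where OsGRF9 is tested too), and ran from 0 (without long replicate 2, 2 at an unadjusted p under 0.05) to 1. For miR396 probes at 24 h, 3 became 4 with Agilent's processed signals, the authors' deposited table, median centring, array weights and the slide as a random block, and with an array left out ran from 0 (without long replicate 1, 0 unadjusted) to 3. After the short exposure the miR396 count was 2 to 4 in all alternatives but the next. Without the short arrays of slide 2, which leaves 1 short array assumed to vary like the others, the miR396 and GRF counts were 0 after the short exposure (0 unadjusted for each) and 0 between the exposures (0 and 1 unadjusted), and those of all genes fell from 12854 to 6362 and from 9084 to 4563. In the control channel 0 of 11 members passed, 2 with 75th percentile scaling and 0 to 2 with an array left out. At an unadjusted p under 0.05 the control channel had 5 of 11 members and 6511 of all 23490 genes. Of all genes 1049 passed there, 6842 with 75th percentile scaling, and 0 to 3941 with an array left out (0 without short replicate 3, long replicate 1 or long replicate 2, with 5239, 4343 and 4474 unadjusted; 3941 without short replicate 1, 406 without short replicate 2 and 110 without long replicate 3).

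Scaling moved the split of all genes. At 24 h 7911 were higher and 7267 lower, against 5006 and 8729 with median centring. Between the exposures it was 3844 and 5240, against 1836 and 6398 (a shift of the median of -0.137). After the short exposure it was 7179 and 5675, against 5710 and 7687 with Agilent's processed signals. The replicate number as a block left 2 miR396 probes and 1 GRF locus past the threshold between the exposures, and 7494 genes. Deviations of same-numbered arrays correlated at -0.236, -0.117 and -0.1. Since deviations from the mean of an exposure depend on each other, these values cannot show whether same-numbered arrays shared control RNA. Such sharing was not tested. With the slide as a random block the correlation was -0.106. Dim signals limit the sizes of OsGRF3, OsGRF4, OsGRF10 and miR396b. The miR396d probes 3'seq and 5'seq were little brighter, with a mean log2 brightness of 8.499 and 8.243 against 8.232 for miR396b 3'seq. From Agilent's processed signals their 24 h ratios were -0.291 and -0.399.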

Other observations

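OsGRF6, the brightest GRF locus tested, was set against 22491 other genes over 12 channel values (Cy3 and Cy5 of each array, which share arrays and scaling). The 3 genes with the most similar pattern were Os02g0734500, Os06g0225200 and Os03g0109500, with Pearson's r of 0.952, 0.948 and 0.94, and 26 genes exceeded 0.9. The files do not pair these loci with names.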
